A study of Mus musculus with 20 samples.

Results

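CREB1, its close relatives CREM and ATF1, and the proteins that act with them in transcription formed the set of genes described here: the transcription factor genes Creb1, Crem and Atf1, the coactivator genes Crtc1, Crtc2, Crtc3, Crebbp and Ep300, and Sik1, which encodes a kinase that acts on the CRTC proteins. Members were chosen by name: every probe whose later array annotation carried one of the 9 gene symbols was taken, which gave 19 probes out of the 39429 non-control probes on the array and 9 of its 30222 annotated names. The RNA was that of dorsal root ganglion (DRG) neurons, the sensory neurons of the body, taken from mouse embryos of day 13.5 and kept in culture. Neurons either received no stimulation or were driven by 6 V biphasic pulses of 0.2 ms in 1 of 2 patterns that deliver the same number of action potentials. The 18/1 pattern gave a burst of 18 action potentials every 1 min and the 90/5 pattern a burst of 90 every 5 min, each for 2 hr or 5 hr. There were 4 samples in each of the 5 groups (unstimulated, 18/1 2 hr, 18/1 5 hr, 90/5 2 hr and 90/5 5 hr), all of 1 culture system, and the methods describe each condition as made from pooled cultures, so the 4 samples of a group may share cultures. Nerve growth factor and serum were withdrawn overnight before stimulation. The labels call the cells DRG neurons, and the methods describe their dissociation from embryonic spinal cords. The comparisons ask whether the genes of the CREB machinery are themselves set to another mRNA level by firing, and whether that depends on its pattern or duration.

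CREB1 sits on cAMP response elements in promoters and is switched on when kinases, driven by calcium or cAMP, phosphorylate it. The phosphorylated factor recruits the histone acetyltransferases CBP (Crebbp) and p300 (Ep300), and the CRTC proteins join it after calcineurin removes the phosphates that hold them in the cytoplasm. SIK1 puts those phosphates back. Crem, through an internal promoter that yields the short repressor ICER, and Sik1 are known targets of CREB, and both products damp CREB-driven transcription. In sensory neurons this pathway couples firing to genes such as Bdnf.

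Each of 10 arrays carried 2 samples of 1 group, one in Cy3 and one in Cy5. Unstimulated and 18/1 2 hr samples shared slide 1, 18/1 5 hr (arrays 5 and 6) and 90/5 2 hr samples (arrays 7 and 8) shared slide 2, and the 90/5 5 hr samples had slide 3 to themselves. Slide 2 stood apart: the scanner software marked 45 to 14642 spots per sample as non-uniform there, against 6 to 36 on slide 1 and 37 to 85 on slide 3, and the typical spot was 3.64 to 10.4 times its local background on slide 2, against 2.27 to 2.94 and 2.66 to 4.91. The only comparisons that stay within a slide are 18/1 2 hr against unstimulated and 90/5 2 hr against 18/1 5 hr; in every other comparison, slide and stimulation cannot be told apart. All 12 sensory neuron markers examined were well above background in all 20 samples. So were 5 of 7 Schwann cell and satellite glia markers and 4 of 5 macrophage markers. None of 5 spinal cord markers was so in all samples, though each was in some. Markers of fibroblasts averaged 10.38 to 11.49 on the log2 scale in unstimulated samples and 11.67 to 12.04 at 18/1 5 hr, with 5 of 6 well above background throughout; of 4 with a filtered probe, Col1a1 was called higher there (1.79 ± 0.52, adjusted p = 0.0082), and their part in the results at 18/1 5 hr was not tested. In such mixed cultures, fewer cells of a type and less RNA per cell cannot be told apart.

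Values are given as normalised signal, the log2 of a spot's background-corrected and normalised brightness, and differences as log2 differences, where 1 stands for a doubling. Of the 19 probes, 7 probes of 6 genes (Crem, Crtc1, Crtc2, Crtc3, Crebbp and Sik1) met the spot filter, which asked for a spot at least 2 times its background and no non-uniform mark in all 20 samples; 12137 probes did so in all. No probe of Creb1, Atf1 or Ep300 met it. Of the 12 probes that did not, 4 failed through non-uniform marks alone, all on slide 2, and 8 were too dim in at least 1 sample. The filtered probes were tested together, and the other member probes in a fit of all 39429 probes. A probe is called where limma's p-value, adjusted over all probes of the fit by the Benjamini-Hochberg method, is under 0.05.

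Against unstimulated neurons, members were called only at 18/1 5 hr, where a large share of the array was called too. At 18/1 2 hr, 0 of the 7 filtered member probes were called by limma, beside 0.0165% of all filtered probes, and 0 had an unadjusted p under 0.05, beside 0.84%. The 18/1 5 hr comparison called 3 of 7, beside 44.9% of all filtered probes: 1 was higher and 2 were lower, beside 14.4% and 30.6%, and 4 had an unadjusted p under 0.05, beside 52.5%. The 90/5 2 hr comparison called 0 of 7, beside 6%, with 2 at an unadjusted p under 0.05, beside 22.3%. The 90/5 5 hr comparison called 0 of 7, beside 0.0577%, with 1 at an unadjusted p under 0.05, beside 3.32%. In the fit of all probes, 4 of 19 were called at 18/1 5 hr, beside 25.4% of all 39429 probes, and 0 at 18/1 2 hr, 90/5 2 hr and 90/5 5 hr, beside 0.00507%, 1.37% and 0.0457%. The share called at 18/1 5 hr is close to that of the array, so the count there says nothing particular about these genes. The median log2 difference of the 7 probes was -0.15, -0.59, 0.28 and -0.07 in the same order, against -0.00, -0.26, -0.09 and -0.00 over all filtered probes.

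**Figure D1:**
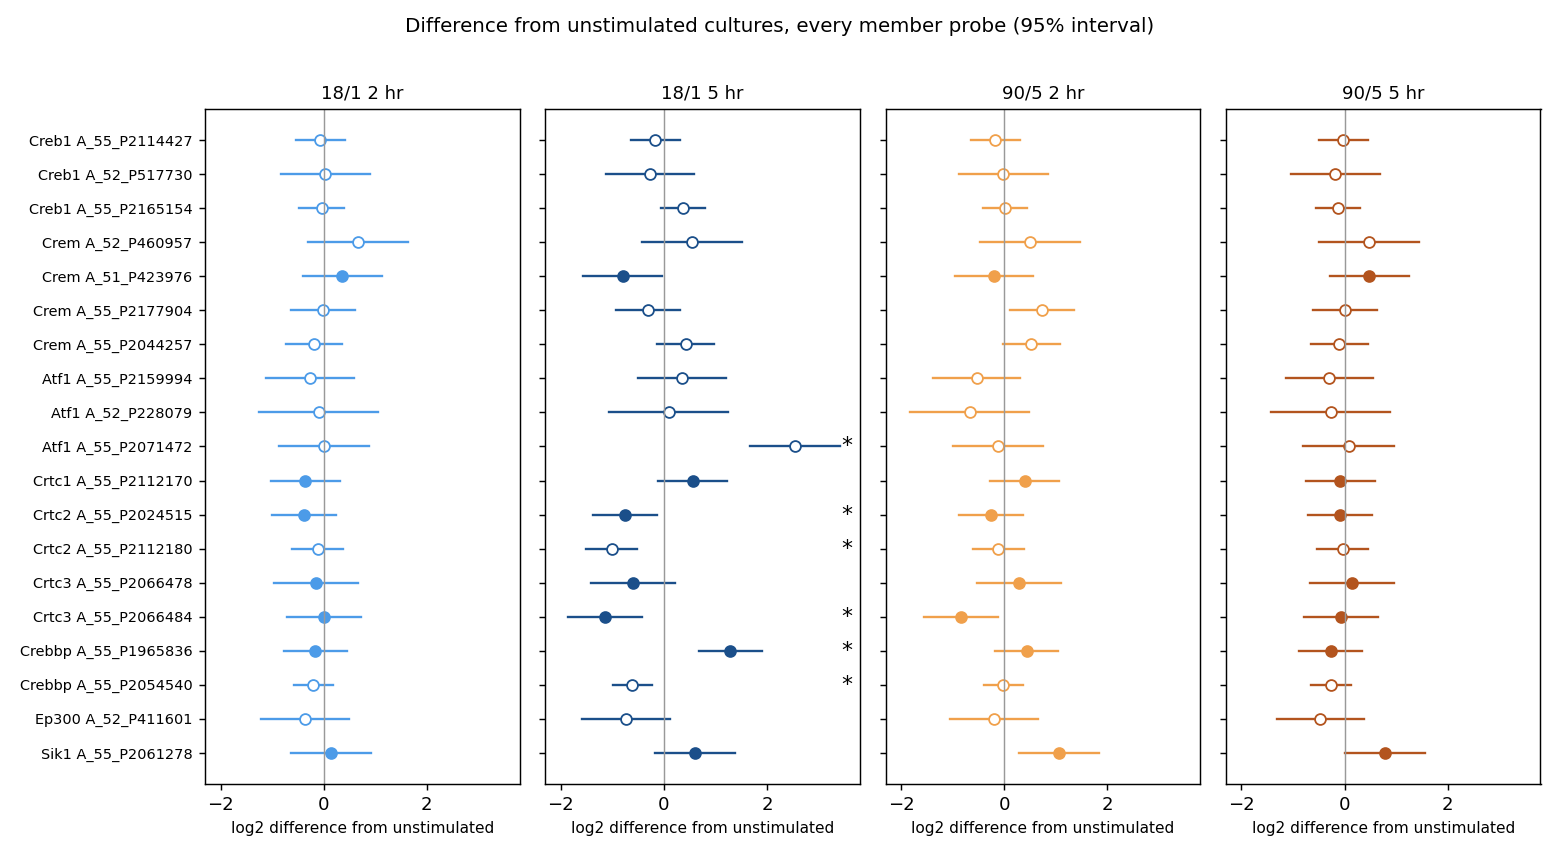
Log2 difference from unstimulated neurons for all 19 member probes in each of the 4 stimulated groups, with 95% intervals; filled circles are probes that met the spot filter, open circles probes tested in the fit of all probes, and asterisks mark adjusted p under 0.05. All asterisks stand in the panel of 18/1 5 hr, and the lower of the Crebbp probes was at background in that group.

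Creb1, the founding member, gave no call in any comparison with unstimulated neurons. Its brightest probe, A_55_P2114427 (mm9, chr1:64651061-64651120), read 8.35, 7.86, 8.12 and 8.08 in the unstimulated samples. At 18/1 2 hr it read 8.07, 8.004, 7.98 and 8.10, and at 90/5 5 hr 8.31, 8.12, 7.89 and 7.98. The 18/1 5 hr samples read 7.97, 8.16, 7.90 and 7.71 and the 90/5 2 hr samples 8.08, 7.99, 7.88 and 7.75, so all 5 groups overlapped. In the fit of all probes its log2 differences from unstimulated were -0.06 ± 0.23 (SE), -0.17 ± 0.23, -0.17 ± 0.23 and -0.03 ± 0.23 in the order 18/1 2 hr, 18/1 5 hr, 90/5 2 hr and 90/5 5 hr, with adjusted p between 0.62 and 1. On slides 1 and 3 alone, where the spread is smaller, the 95% interval of the difference was -0.34 to 0.22 at 18/1 2 hr and -0.31 to 0.25 at 90/5 5 hr. These intervals give the differences that the values of this probe allow, not the smallest difference that could be called. The second probe, A_52_P517730 (chr1:64644633-64644692), averaged 7.66 ± 0.05 (SD, n = 4) without stimulation and 7.70 ± 0.17 at 18/1 2 hr. It varied more on slide 2, where array 5 averaged 6.95 and array 6 averaged 7.83 within 18/1 5 hr. The third Creb1 probe, A_55_P2165154, was well above background in 2 of 20 samples, both at 18/1 5 hr and both marked non-uniform.

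Crem, whose products include the CREB antagonist ICER, read higher in stimulated neurons on both of its bright probes where slide 2 is not involved, without passing the adjusted threshold. The 90/5 5 hr samples among these lie on another slide than the unstimulated ones. Which Crem transcripts the probes measured, ICER or others, was not tested. Both probes lie near the 3' end of the gene in its annotated transcript NM_013498, at mm9 chr18:3267671-3267730 (A_52_P460957) and chr18:3267049-3267108 (A_51_P423976). The first read 9.20, 9.97, 9.70 and 9.94 in unstimulated samples and 10.40, 10.29, 10.05 and 10.75 at 18/1 2 hr, on the same slide. Every stimulated sample of that pair lay above every unstimulated one. Of filtered probes, which do not include this one, 6.01% showed such a separation in one direction or the other. Among probes that met the filter in the samples of slides 1 and 3, which do include it, the share was 5.4%. The 18/1 5 hr samples read 10.28, 9.86, 10.60 and 10.26, the 90/5 2 hr samples 10.35, 10.004, 10.42 and 10.04, and the 90/5 5 hr samples 10.34, 10.51, 9.68 and 10.19. Its log2 difference from unstimulated was thus positive in all 4 groups: 0.67 ± 0.46 (SE), 0.55 ± 0.46, 0.50 ± 0.46 and 0.48 ± 0.46, with adjusted p of 1, 0.407, 0.673 and 1.00 in limma.

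The second Crem probe, A_51_P423976, also read higher on slides 1 and 3 but not on slide 2. It read 7.99, 8.15, 7.94 and 8.19 without stimulation, 8.56, 8.39, 8.31 and 8.46 at 18/1 2 hr, and 8.53, 8.74, 8.19 and 8.73 at 90/5 5 hr. The 18/1 2 hr samples all lay above the unstimulated ones, where 6.01% of filtered probes separated in either direction. Of the 90/5 5 hr samples, 1 fell just inside the unstimulated range. On slide 2, at 18/1 5 hr, it read 6.98 and 6.41 on array 5, where it was not well above background, and 8.05 and 7.63 on array 6; the 90/5 2 hr samples read 8.39, 8.01, 7.91 and 7.16. The log2 differences were 0.36 ± 0.37, -0.80 ± 0.37, -0.20 ± 0.37 and 0.48 ± 0.37 (adjusted p 1.00, 0.0794, 0.803 and 1.00). At 18/1 5 hr this probe was called lower in 8 of 44 alternatives, with differences from -1.37 (adjusted p = 0.00227, without array 6) to -0.80. Over all 44 alternatives, called or not, the difference ran from -1.37 to -0.23. Across the 12 samples of slides 1 and 3 the Pearson correlation of the Crem probes was 0.799, and across all 20 samples 0.285; the samples share arrays and slides, and these are descriptions.

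Leaving out slide 2 and asking the filter of the other 12 samples let 18634 probes in, among them 11 member probes of all 9 genes, an alternative chosen after the data were seen. None of the 11 was called by limma at 18/1 2 hr or at 90/5 5 hr, beside 0.0376% and 2.79% of all probes; 3 and 4 of 11 had an unadjusted p under 0.05, beside 8.22% and 17.9%, and 3 and 1 did not overlap with unstimulated, beside 5.4% and 11.9%. Those under the unadjusted threshold at 18/1 2 hr were Crem A_52_P460957 (log2 difference 0.67 ± 0.18, adjusted p = 0.419), Crem A_51_P423976 (0.36 ± 0.12, adjusted p = 0.513) and Crtc2 A_55_P2024515 (-0.39 ± 0.17, adjusted p = 0.6). For 90/5 5 hr they were the same Crem probes (0.48 ± 0.18, adjusted p = 0.192, and 0.48 ± 0.12, adjusted p = 0.0642), Sik1 (0.79 ± 0.28, adjusted p = 0.167) and Ep300 (-0.47 ± 0.18, adjusted p = 0.198). The other Crem probes, A_55_P2177904 (chr18:3283995-3284054) and A_55_P2044257 (chr18:3294164-3294223), were each well above background in 4 of 20 samples and carry no level elsewhere that can be ranked.

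Sik1, the kinase that returns CRTC proteins to the cytoplasm, was measured by 1 probe, A_55_P2061278 (chr17:31981255-31981314), well above background in all 20 samples. It read 7.96, 8.15, 7.79 and 7.91 in unstimulated neurons and 8.12, 7.998, 8.39 and 7.87 at 18/1 2 hr, and these groups overlapped. At 18/1 5 hr it read 8.81, 8.44, 8.72 and 8.23, at 90/5 2 hr 8.89, 8.75, 9.23 and 9.20, and at 90/5 5 hr 8.34, 8.49, 9.85 and 8.28. All samples of those 3 groups lay above all unstimulated samples, a separation seen in either direction in 54.2%, 25.6% and 11.2% of filtered probes. The log2 differences from unstimulated were 0.14 ± 0.38 (SE), 0.60 ± 0.38, 1.07 ± 0.38 and 0.79 ± 0.38 in the usual order. The adjusted p-values of 1.00, 0.203, 0.0947 and 1.00 left all 4 uncalled. In order of mean level the Sik1 groups ran from unstimulated (7.95) over 18/1 2 hr (8.09), 18/1 5 hr (8.55) and 90/5 5 hr (8.74) to 90/5 2 hr (9.02), and no neighbours in that order differed by a called amount. The place of 90/5 5 hr rests on replicate 3, which read 9.85 against 8.28 to 8.49 in the other three: without it the mean of the group was 8.37 ± 0.10 (SD, n = 3), below 18/1 5 hr, and its difference from unstimulated was 0.43. Between the patterns at 2 hr, Sik1 was 0.92 ± 0.38 higher with 90/5 (adjusted p = 0.174) and every 90/5 sample lay above every 18/1 sample, across 2 slides, as 18% of filtered probes did in either direction. Within slide 2, 90/5 2 hr exceeded 18/1 5 hr by 0.47 ± 0.38 (adjusted p = 0.41).

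**Figure D2:**
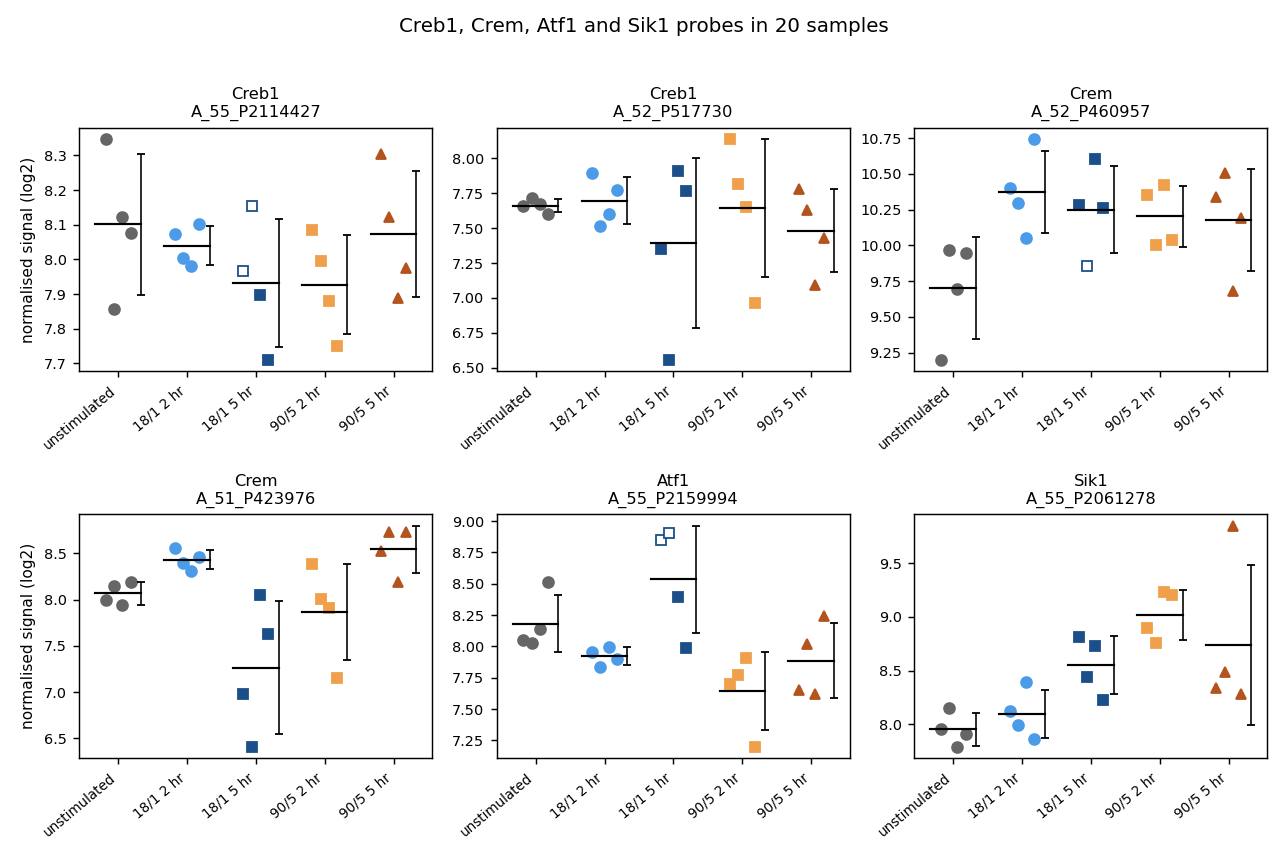
Normalised signal (log2) of probes of Creb1, Crem, Atf1 and Sik1 in each of the 20 samples, by group; circles, squares and triangles are samples of slides 1, 2 and 3, open symbols mark non-uniform spots, and bars show the mean and SD of 4 samples. Crem A_52_P460957 averages 9.70 without stimulation and 10.18 to 10.37 in the stimulated groups, and Sik1 averages 7.95 without stimulation and 9.02 at 90/5 2 hr, with no difference past the adjusted threshold.

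Atf1, which pairs with CREB1 on the same DNA element, gave no call on either of its brighter probes. A_55_P2159994, which the array annotation places on chromosome X (51185510 to 51185569) although it names Atf1 transcript NM_007497, averaged 8.18 ± 0.23 (SD, n = 4) without stimulation and 7.92 ± 0.07, 8.53 ± 0.43, 7.64 ± 0.31 and 7.88 ± 0.30 in the stimulated groups. A_52_P228079 (chr15:100090547-100090606) averaged 7.84 ± 0.13, 7.74 ± 0.12, 7.93 ± 1.62, 7.17 ± 0.43 and 7.57 ± 0.25. Its wide spread at 18/1 5 hr came from array 5 averaging 6.53 and array 6 averaging 9.33. The third probe, A_55_P2071472 (AK148500, chr15:100093285-100093344), was not well above background in any unstimulated sample, where it read 6.80, 6.61, 6.74 and 6.64. Those of 18/1 5 hr read 9.68, 10.39, 8.24 and 8.64, all 4 spots marked non-uniform. Taken as measured on those marked spots, that is at least 5.82-fold higher, a bound that covers only the dim group. The probe was called in the fit of all probes (adjusted p = 0.000512). At 90/5 2 hr, on the same slide, no sample was well above background, and the other Atf1 probes gave differences of 0.35 ± 0.40 and 0.09 ± 0.55 at 18/1 5 hr, neither called.

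Among the coactivators, Crebbp gave the largest called difference of the filtered member probes, and the identity of the probe bears on how far that can be read. The probe A_55_P1965836 (NM_001025432, minus strand, mm9 chr16:4084710-4084769) covers a run of CAG and CAA triplets, repeats of a kind that other transcripts carry too, and its sequence is shown for that reason, with the run of 14 triplets in capitals.
Crebbp A_55_P1965836: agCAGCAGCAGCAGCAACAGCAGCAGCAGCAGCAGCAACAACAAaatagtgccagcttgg
It read 11.21, 11.56, 11.12 and 11.41 without stimulation and 10.73, 11.35, 11.29 and 11.30 at 18/1 2 hr. The 18/1 5 hr samples read 12.83 and 13.28 on array 5 and 11.90 and 12.44 on array 6. All lay above every unstimulated sample, in a comparison where 54.2% of filtered probes separated in either direction. At 90/5 2 hr the probe read 10.997, 11.64, 12.08 and 12.33 and at 90/5 5 hr 10.77, 11.45, 10.69 and 11.34, both overlapping unstimulated. It was higher at 18/1 5 hr by 1.29 ± 0.29 (SE, adjusted p = 0.00162), a 2.44-fold difference, and the 90/5 5 hr samples differed from the 18/1 5 hr samples by -1.55 ± 0.29 (adjusted p = 0.000299). With samples centred on their medians in place of loess and Aquantile, these differences were 0.77 (adjusted p = 0.116) and -0.87 (adjusted p = 0.0725), neither of them called, and by the methods' t-test the first had an unadjusted p of 0.0506.

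The other Crebbp probe, A_55_P2054540 (AK048818, chr16:4082201-4082260), was dim in every group: it read 6.98 ± 0.10 (SD, n = 4) without stimulation and 6.37 ± 0.09 at 18/1 5 hr, where it was not well above background in any sample. It was called lower there in the fit of all probes (adjusted p = 0.0206). Only 2 of the 4 unstimulated samples were well above background, so the 1.24-fold set by the bound of the dim group is not a minimum. The sequence CAGCAGCAGCAGCAG, searched on both strands, stands in 11 of the 39429 probes (0.0279%), and 9 of these met the spot filter, the Crebbp probe among them. At 18/1 5 hr, 4 of the 9 were called higher and 3 lower, beside 14.4% and 30.6% of all filtered probes, with a median difference of 0.21 against -0.26 over all filtered probes. Whether transcripts other than Crebbp contributed to its signal was not tested.

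Ep300, the gene of the partner acetyltransferase p300, was measured by 1 probe, A_52_P411601 (chr15:81481567-81481626), with no call. It read 8.13, 8.09, 8.33 and 7.92 in unstimulated samples and 7.53, 7.74, 8.18 and 7.59 at 18/1 2 hr. Samples of 18/1 5 hr read 7.48, 7.42, 7.41 and 7.22, those of 90/5 2 hr read 7.64, 8.35, 7.89 and 7.80, and those of 90/5 5 hr read 7.53, 7.75, 7.34 and 7.96. Only the 18/1 5 hr samples lay wholly below the unstimulated ones. Of filtered probes, which do not include this one, 54.2% separated in that comparison in either direction. The log2 differences were -0.36 ± 0.40, -0.73 ± 0.40, -0.20 ± 0.40 and -0.47 ± 0.40, with adjusted p of 1, 0.193, 0.886 and 1.00.

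Crtc1, the CRTC family member best known from neurons, was measured by A_55_P2112170 (chr8:72906260-72906319). It read 11.40, 11.61, 11.27 and 11.58 in unstimulated samples, 10.703, 11.48, 11.18 and 11.06 at 18/1 2 hr, and 12.29, 12.30, 11.71 and 11.80 at 18/1 5 hr. Each 18/1 5 hr sample lay above both other groups, where 54.2% of filtered probes separated from unstimulated and 49.9% from 18/1 2 hr in either direction. Against unstimulated the difference was 0.56 ± 0.32 (adjusted p = 0.161), and against 18/1 2 hr it was called, at 0.92 ± 0.32 (adjusted p = 0.0247). That call was lost in 8 of 44 alternatives: it was 0.28 (adjusted p = 0.508) with samples centred on their medians and 0.65 (adjusted p = 0.136) without array 5, and it also went with either wider filter and without array 3, array 4, or replicate 1 or 4 of 18/1 2 hr. The 90/5 samples averaged 11.86 ± 0.27 (SD, n = 4) at 2 hr and 11.38 ± 0.53 at 5 hr and overlapped unstimulated.

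Crtc2, a CRTC family member with broad expression, was called lower at 18/1 5 hr on both of its probes. A_55_P2024515 (chr3:90067950-90068009) read 10.84, 10.72, 10.36 and 10.67 without stimulation, 9.68 and 9.15 on array 5 and 10.38 and 10.32 on array 6. Its difference of -0.76 ± 0.30 was just past the threshold (adjusted p = 0.0423), with array 6 within or just below the unstimulated range, and without array 5 it was -0.30 (adjusted p = 0.404). The call was lost in 23 of 44 alternatives, among them no filter (adjusted p = 0.123), no colour term (0.051) and quantile normalisation (0.0514). The second probe, A_55_P2112180 (chr3:90066577-90066636), read 7.49 to 7.78 without stimulation, a mean of 7.56 ± 0.14 (SD, n = 4), and 6.597, 6.45, 6.601 and 6.58 at 18/1 5 hr, where no sample was well above background. It was at least 1.81-fold lower (adjusted p = 0.00526 in the fit of all probes). In the other stimulated groups its means of 7.45, 7.45 and 7.53 lay within 0.12 of the unstimulated mean of 7.56.

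Crtc3, the third CRTC gene, had 2 filtered probes in NM_173863. A_55_P2066484 (chr7:87733212-87733271) read 7.997, 8.27, 8.21 and 8.26 without stimulation and 7.04, 6.92, 7.17 and 7.04 at 18/1 5 hr, where 2 of the 4 spots were well above background. Its groups did not overlap, as was so in either direction for 54.2% of filtered probes. It was called lower, with a difference of -1.14 ± 0.35 (adjusted p = 0.0113); the call was lost with no filter (adjusted p = 0.0652) and without array 1 (0.061) or array 2 (0.0892). At 90/5 2 hr it read 8.09 and 7.75 on array 7 and 6.82 and 6.74 on array 8. A_55_P2066478 (chr7:87731571-87731630) read 9.70, 9.75, 9.66 and 9.77 without stimulation, and at 18/1 5 hr 8.26 and 8.22 on array 5 but 9.89 and 10.13 on array 6, a difference of -0.59 ± 0.39 (adjusted p = 0.229). The last 30 bases of the first probe are shown because they end in a 10-base word, in capitals, of a kind found in B1 repeats, which are scattered over many mouse transcripts.
Crtc3 A_55_P2066484, last 30 bases: ttaagaaataaggcctggctGGGCGTGGTG
The word GGGCGTGGTG, searched on both strands, stands in 6 of all probes (0.0152%), of which 4 met the filter. Of these 4, the Crtc3 probe among them, 3 were called lower at 18/1 5 hr, beside 30.6% of all filtered probes and 69% of those with a mean signal under 8. Their median difference was -1.71, against -0.26 and -0.92. As with the triplet run, the part of repeat sequence in the signal was not tested.

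**Figure D3:**
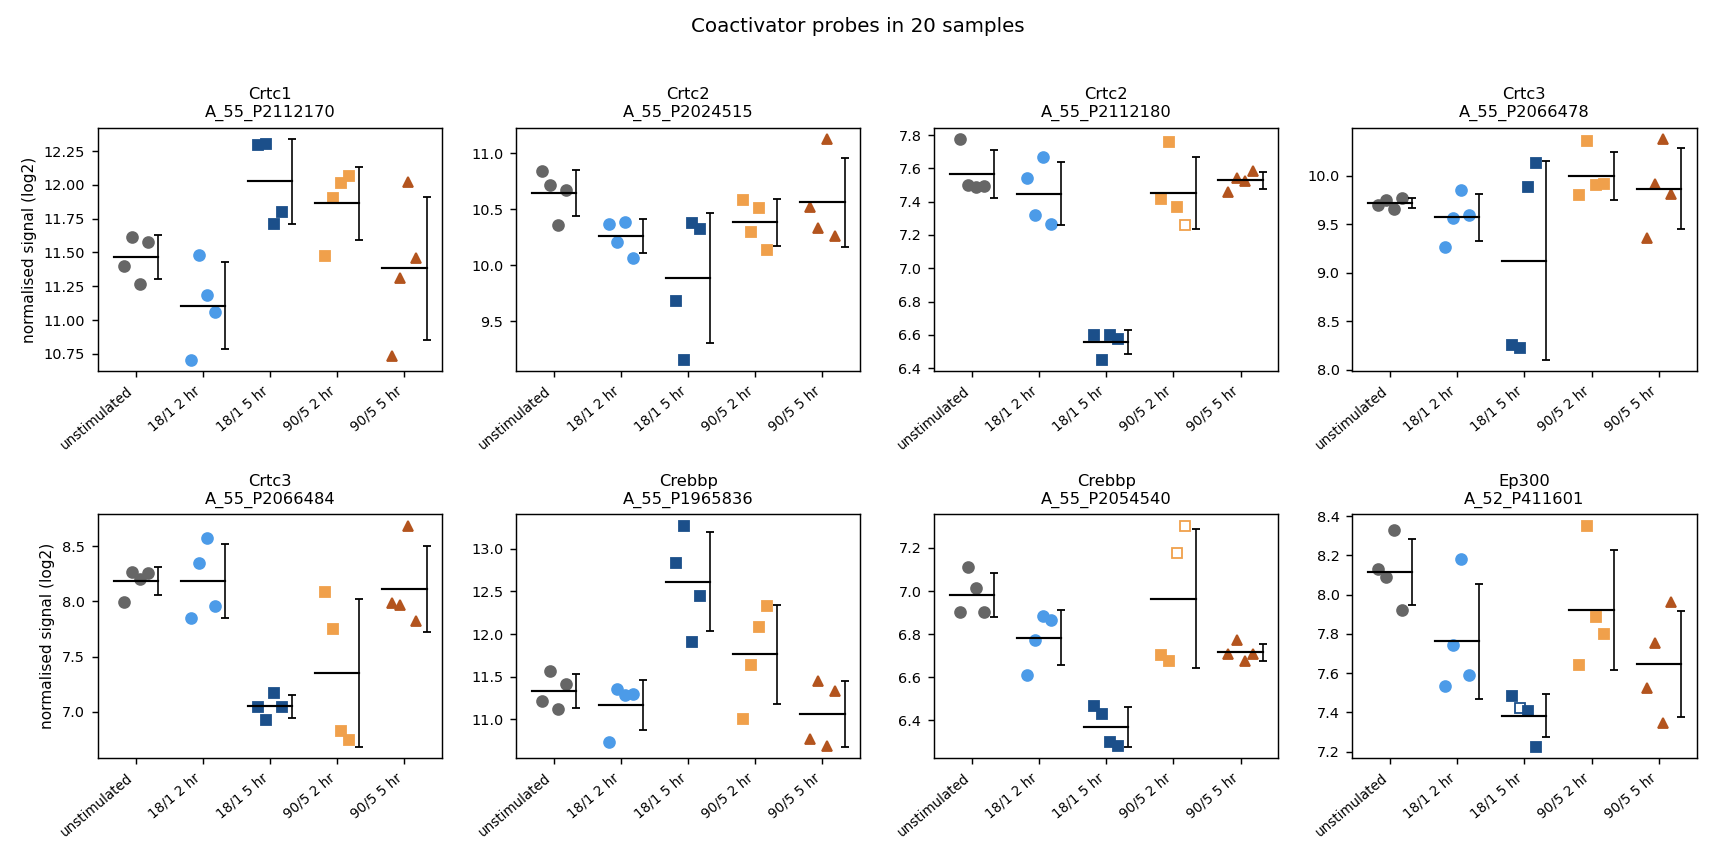
Normalised signal (log2) of probes of Crtc1, Crtc2, Crtc3, Crebbp and Ep300 in each of the 20 samples, by group; circles, squares and triangles are samples of slides 1, 2 and 3, open symbols mark non-uniform spots, and bars show the mean and SD of 4 samples. The 18/1 5 hr samples fall into a lower and an upper pair, one pair per array, for Crtc2 A_55_P2024515 and Crtc3 A_55_P2066478.

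Among filtered probes, differences at 18/1 5 hr went with the signal of the probe, and to a lesser extent so did those at 90/5 2 hr, the other group of slide 2. Over all filtered probes the median log2 difference from unstimulated was -0.92 for probes with a mean signal under 8, -0.63 from 8 to 9, -0.27 from 9 to 10 and -0.09 to -0.14 above 10. Among the members, Crtc3 A_55_P2066484 (-1.14, mean signal 7.78) and Crem A_51_P423976 (-0.80, mean signal 8.04) lay below the median of probes of their brightness, as did Crtc2 A_55_P2024515 (-0.76, mean signal 10.35) and Crtc3 A_55_P2066478 (-0.59, mean signal 9.66). Sik1 (0.60, mean signal 8.47), Crtc1 (0.56, mean signal 11.57) and Crebbp A_55_P1965836 (1.29, mean signal 11.59) lay above it. The medians at 90/5 2 hr were -0.38 under 8, -0.14 from 8 to 9 and -0.03 to -0.07 above 9. At 90/5 5 hr the medians stayed between -0.05 and 0.01 at every signal. Over all probes, filtered or not, the medians at 18/1 5 hr were 0.11 under 7, -0.18 from 7 to 8, -0.37 from 8 to 9, -0.19 from 9 to 10 and -0.09 above 10. The part of this trend in the members' calls was not tested.

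**Figure D4:**
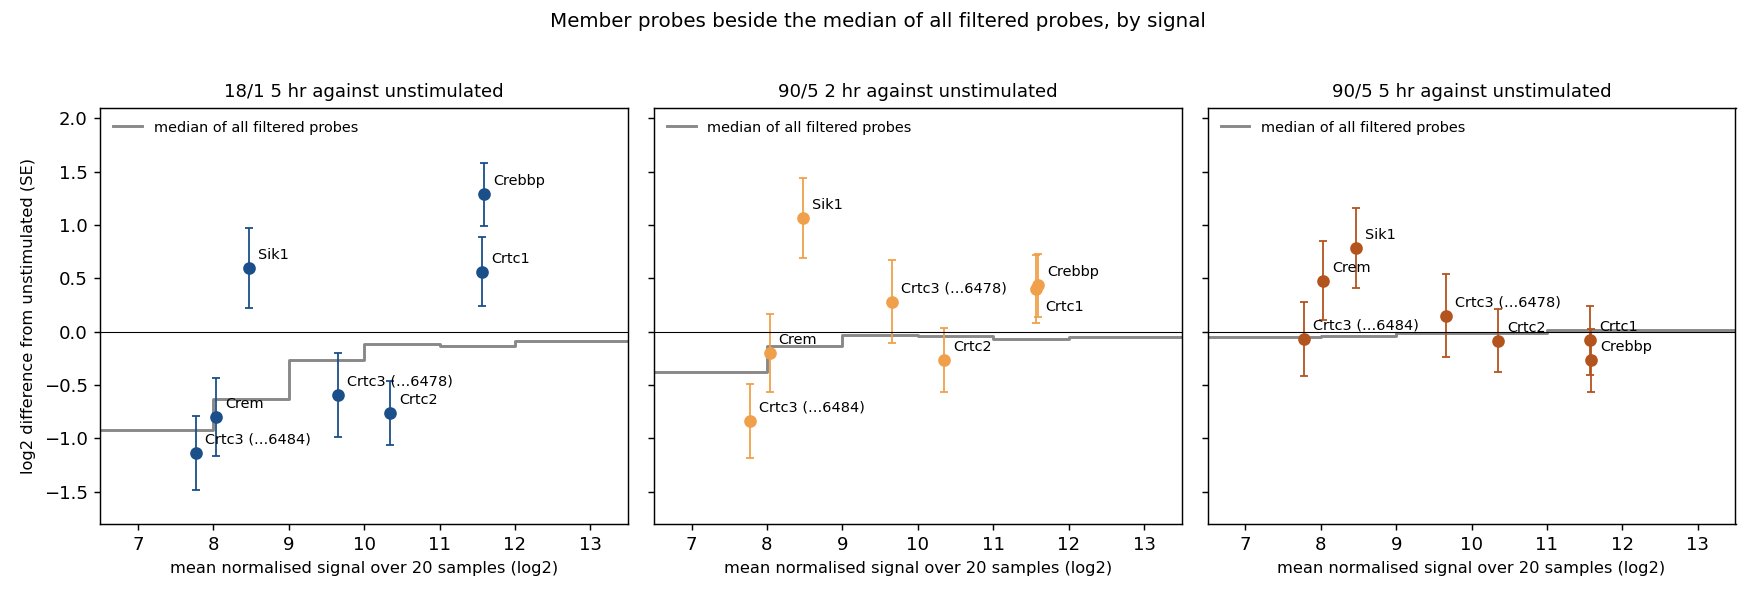
Log2 difference from unstimulated (with SE) against mean normalised signal (log2) for the 7 filtered member probes, beside the median of all filtered probes in bins of signal (grey line), at 18/1 5 hr (left), 90/5 2 hr (middle) and 90/5 5 hr (right). The grey line falls to -0.92 for dim probes at 18/1 5 hr and -0.38 at 90/5 2 hr, and stays between -0.05 and 0.01 at 90/5 5 hr.

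Between the patterns at 5 hr, 3 of 7 filtered member probes were called, beside 45.9% of all filtered probes. With 90/5, 2 were higher, beside 30.7%: Crem A_51_P423976 by 1.28 ± 0.37 (adjusted p = 0.00746), and Crtc3 A_55_P2066484 by 1.07 ± 0.35 (adjusted p = 0.0157). The 1 lower, beside 15.2%, was Crebbp A_55_P1965836, and 4 of 7 had an unadjusted p under 0.05, beside 53.2%. Without array 5, where the Crem spots were not well above background, its difference was 0.71 (adjusted p = 0.0947); the Crem call also went without array 9, the Crtc3 call without array 10, and both with no filter. The methods' t-test after adjustment called neither Crtc3 (adjusted p = 0.0855) nor Crebbp (0.0879). The brighter probes of these genes were not called here: Crem A_52_P460957 differed by -0.07 ± 0.46 (adjusted p = 0.925, fit of all probes) and Crtc3 A_55_P2066478 by 0.74 ± 0.39 (adjusted p = 0.127). Fibroblast markers moved with this comparison, 3 of 4 tested being lower with 90/5 at a median of -1.19, and their part in it was not tested. At 2 hr, 0 of 7 differed between the patterns by limma, beside 4.62%, with 3 at an unadjusted p under 0.05, beside 19.2%.

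Between 5 hr and 2 hr of 18/1, 4 of 7 were called, beside 44.8% of all filtered probes, with the same 4 counted at an unadjusted p under 0.05, beside 52.3%. Crebbp A_55_P1965836 rose by 1.45 ± 0.29 (adjusted p = 0.000653) and Crtc1 rose as given above, 2 of 7 beside 14.7%. Crem A_51_P423976 (-1.17 ± 0.37, adjusted p = 0.0139) and Crtc3 A_55_P2066484 (-1.14 ± 0.35, adjusted p = 0.0113) fell, 2 of 7 beside 30.1%. Without array 5 the Crem difference was -0.60 (adjusted p = 0.165), and with samples centred on their medians that of Crebbp was 0.93 (adjusted p = 0.0577), neither of them called. Both of those Crem and Crtc3 probes also lost their calls without array 4 and with no filter, and that of Crem without array 3. The brighter probes gave -0.12 ± 0.46 for Crem A_52_P460957 (adjusted p = 0.873, fit of all probes) and -0.45 ± 0.39 for Crtc3 A_55_P2066478 (adjusted p = 0.366), neither called. Of 4 fibroblast markers tested, 1 was called higher at 5 hr of 18/1 than at 2 hr. Their median difference was 0.86, against -0.26 over all filtered probes, and their part in this comparison was not tested. Between 5 hr and 2 hr of 90/5, limma called 0 of 7, beside 8.06%, with 2 at an unadjusted p under 0.05, beside 22.6%. Within slide 2, 90/5 2 hr against 18/1 5 hr gave 0 of 7 calls in limma, beside 13.8%, with 2 at an unadjusted p under 0.05, beside 31.3%; the Crebbp probe differed by -0.85 ± 0.29 (adjusted p = 0.0563).

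The change from 2 hr to 5 hr depended on the pattern for 4 of 7 probes, beside 45%, and 4 had an unadjusted p under 0.05, beside 52.1%. The interaction was positive for Crem A_51_P423976 (1.85 ± 0.52, adjusted p = 0.00656) and Crtc3 A_55_P2066484 (1.91 ± 0.49, adjusted p = 0.00352), beside 29.1% of all, but was not called on their brighter probes (Crem A_52_P460957 0.10 ± 0.65, adjusted p = 0.926 in the fit of all probes, and Crtc3 A_55_P2066478 0.32 ± 0.56, adjusted p = 0.666). It was negative for Crebbp A_55_P1965836 (-2.15 ± 0.42, adjusted p = 0.000364) and Crtc1 (-1.40 ± 0.45, adjusted p = 0.0161), beside 15.9%. The Crtc1 term lost its call in 5 of 41 alternatives, at -0.74 (adjusted p = 0.208) with samples centred on their medians. These comparisons share the 18/1 5 hr samples, and each count of members is to be read against the share of the array.

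Over all 19 probes, the fit of all probes called 3 between the patterns at 5 hr, 3 between 5 hr and 2 hr of 18/1, 3 within slide 2 and 6 for the interaction, beside 26.8%, 24.9%, 6.31% and 26.2% of all probes. It called 0 between the patterns at 2 hr and between 5 hr and 2 hr of 90/5, beside 1.13% and 2.73%. The 3 within slide 2 were all on dim probes: Atf1 A_55_P2071472 was lower at 90/5 2 hr than at 18/1 5 hr (at least 4.31-fold, adjusted p = 0.00136), and Crtc2 A_55_P2112180 (at least 1.67-fold, adjusted p = 0.0317) and Crem A_55_P2177904 (at least 1.7-fold, adjusted p = 0.0459) were higher. The last rests on array 8, where both spots were marked non-uniform, and the Atf1 difference on 18/1 5 hr spots that were all marked so.

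Some known activity-regulated target genes of CREB rose in each stimulated group. The list holds genes that earlier results of these data had already shown to rise, so it is not independent evidence. Of its 20 genes, 9 had a filtered probe, and 1, 3, 4 and 3 of these rose at 18/1 2 hr, 18/1 5 hr, 90/5 2 hr and 90/5 5 hr, with 0 called lower by limma. Of all filtered probes, 0.0165%, 44.9% (14.4% higher), 6% and 0.0577% were called there. The median difference of the 9 was 0.46, 0.67, 0.89 and 0.91, against -0.00, -0.26, -0.09 and -0.00 over all filtered probes. On slides 1 and 3 alone, 3 and 6 of 11 tested rose at 18/1 2 hr and 90/5 5 hr, beside 0.0376% and 2.79% of all probes called. Nr4a1, an orphan nuclear receptor gene, rose by 4.54 ± 0.38, 4.44 ± 0.38, 4.76 ± 0.38 and 5.51 ± 0.38, all called. Gadd45b, a growth arrest and DNA demethylation gene, rose by 1.05 ± 0.25, 1.45 ± 0.25 and 1.84 ± 0.25 in the last 3 of those groups and differed by 0.88 ± 0.25 (adjusted p = 1) in the first. Bdnf, the neurotrophin gene, rose by 2.37 ± 0.30 at 18/1 5 hr and 1.19 ± 0.30 at 90/5 2 hr, with 0.92 ± 0.30 and 1.43 ± 0.30 at 18/1 2 hr and 90/5 5 hr (adjusted p = 1 and 0.117). Fitted on slides 1 and 3 alone, Bdnf was called at 90/5 5 hr (adjusted p = 0.00122) but not at 18/1 2 hr (adjusted p = 0.183). The 1 further gene called in the fit of 20 samples was Egr1, an immediate early transcription factor gene, named after its values were seen. It rose by 2.71 ± 0.59 at 90/5 2 hr and 3.18 ± 0.59 at 90/5 5 hr (adjusted p = 0.00783 and 0.0419). At 18/1 2 hr Egr1 differed by 2.71 ± 0.59 as well, uncalled in this fit (adjusted p = 0.563) and called on slides 1 and 3 alone (adjusted p = 0.00964). At 18/1 5 hr it differed by 1.00 ± 0.59 (adjusted p = 0.171). Fosb and Pcsk1 were called only on slides 1 and 3 alone. Fosb rose there by 1.37 ± 0.17 at 18/1 2 hr and 2.39 ± 0.17 at 90/5 5 hr (adjusted p = 0.0174 and 3.21e-05). Pcsk1 rose there by 0.91 ± 0.18 at 90/5 5 hr (adjusted p = 0.0206).

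Against unstimulated neurons, 4 lists of relatives and regulators of the members gave calls at 18/1 5 hr, where 14.4% of all filtered probes were higher and 30.6% lower, and 1 call at 90/5 2 hr, beside 6%. The counts that follow are to be read against those shares. Of 14 relatives in the CREB and ATF family, 8 had a filtered probe and 2 fell at 18/1 5 hr: Atf3, a stress-induced factor (-1.41 ± 0.39, adjusted p = 0.00632), and Atf6b, a factor of the endoplasmic reticulum (-0.70 ± 0.26, adjusted p = 0.0339). Creb5, another member of the family, was the third by p, at 0.99 ± 0.42 at 90/5 2 hr (adjusted p = 0.162). Of 7 genes that regulate CRTC proteins, 5 were tested, and at 18/1 5 hr 2 rose, the calcineurin subunit gene Ppp3cb by 1.69 ± 0.31 (adjusted p = 0.000268) and the kinase gene Sik3 by 1.19 ± 0.33 (adjusted p = 0.00627). Stk11, which encodes the kinase LKB1 that activates SIKs, fell (-1.70 ± 0.28, adjusted p = 8.73e-05). Of 9 genes of protein kinase A and its inhibitors, 6 were tested and the catalytic subunit genes Prkaca (-1.59 ± 0.32, adjusted p = 0.000491) and Prkacb (-0.73 ± 0.26, adjusted p = 0.0292) fell; the regulatory subunit gene Prkar2a was next by p, at -0.64 ± 0.37 (adjusted p = 0.159). Of 16 genes of CREB kinases, 13 were tested: 2 rose and 3 fell at 18/1 5 hr and 1 fell at 90/5 2 hr. The CaM kinase genes Camk1 (-1.24 ± 0.27, adjusted p = 0.00101) and Camk2a (-0.96 ± 0.25, adjusted p = 0.00371) fell at 18/1 5 hr and the upstream kinase gene Camkk1 rose (1.03 ± 0.26, adjusted p = 0.00343). The others called, named after their values were seen, were Camk4 (0.97 ± 0.36, adjusted p = 0.0333) and Rps6ka1 (-0.92 ± 0.27, adjusted p = 0.00909) at 18/1 5 hr and Camk1g (-0.90 ± 0.25, adjusted p = 0.0345) at 90/5 2 hr. None of the genes of these 4 lists was called by limma at 18/1 2 hr or 90/5 5 hr. At an unadjusted p under 0.05 there were 0 and 1, beside 0.84% and 3.32% of all filtered probes. None was called on slides 1 and 3 alone, where 0.0376% and 2.79% of all probes were called. In that fit 11, 7, 9 and 16 genes were tested, in the order of the lists. Of these, 3, 2, 0 and 3 had an unadjusted p under 0.05 at 18/1 2 hr, beside 8.22% of all probes. For 90/5 5 hr the counts were 2, 2, 3 and 0, beside 17.9%. Between stimulated groups, the lists of relatives, CRTC regulators, protein kinase A genes and CREB kinases gave 3, 3, 1 and 5 calls for the patterns at 5 hr (beside 45.9%) and 1, 3, 1 and 4 between 5 hr and 2 hr of 18/1 (beside 44.8%). They gave 0, 1, 0 and 1 for the patterns at 2 hr (beside 4.62%), 1, 1, 1 and 0 between 5 hr and 2 hr of 90/5 (beside 8.06%) and 1, 1, 0 and 1 within slide 2 (beside 13.8%).

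The probes most like the brightest probe of each of 3 members were found by Pearson correlation over the 20 samples. For Crem A_52_P460957 they belonged to 1810037I17Rik (0.84), Mettl10 (0.808) and Jam3 (0.796). For Sik1 they belonged to Cdh22 (0.846), Pigt (0.83) and Ier5l (0.83), and for Creb1 A_55_P2114427 to NAP111610-1 (0.771), Gm8096 (0.767) and Cep57l1 (0.765). The 20 samples share arrays, slides and groups, and the genes were picked as the highest of 12137 probes.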

How the data were processed

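Per the file headers, the authors deposited the raw spot intensity (mean) and local background (median) of each colour on a linear scale, extracted with Agilent Feature Extraction 10.7.1.1 (slide 1) and 10.7.3.1 (slides 2 and 3), with probes placed on build mm9. The scanner software's deposited yes-or-no marks (non-uniform, well above background, saturated) were taken unaltered, and 72 further per-colour columns were not used. The later of the 2 annotations, which differ in the gene name of 8333 of 44397 spots, named all probes; the earlier one names 15 of the 19 member probes.

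Intensities were background-corrected (normexp, offset 50), normalised by loess within and Aquantile between arrays, and fitted as log2 values per colour with limma 3.58.1 in R 4.3.3: group means, a colour term and array as a random block (correlation 0.536), all 20 samples, eBayes, Benjamini-Hochberg. Spots had to be at least 2 times background and not non-uniform in all 20 samples; normalisation preceded that filter. The fit was tested on simulated data, and no outcome of that test is given here. Arrays limit precision through their number, 2 per group. "At least" folds set the brighter group's mean against the lowest signal among probes well above background on each array, or the probe's own if higher. They bound the dimmer group only and take the brighter mean as measured, marked or dim spots included. Lists used the brightest filtered probe per gene.

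Members, lists and tests were chosen with earlier results of these data known. Named were all probes of all members, the 3 genes with the smallest p per list, and the 3 most similar genes for Crem, Sik1 and Creb1. The methods call the samples biological replicates, but nothing says which cultures each came from, so p-values measure only the spread between these samples, which may be technical. Within a group they correlated at 0.956 to 0.994 and none was a duplicate. The labels do not settle which colour held which replicate for 18/1 5 hr and 90/5 2 hr, so those samples are given by array and colour, Cy3 first. Same-numbered unstimulated and 18/1 2 hr samples, whose numbers come from the labels and which share a slide and a colour, deviated together (correlation 0.404 to 0.704 in 4 pairs, and 0.166 to 0.509 with the mean colour effect removed), so those numbers were taken as pairs and a fit with the replicate block was run. Alternatives covered background correction, normalisation, filters, colour term, block, weights, the methods' t-test and each sample or array left out.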

Additional observations from a re-analysis of the deposited data

Results flagged for a closer look

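Of 95 probe-by-group sets of 4 samples, 5 had 1 sample far from the others; the gap to the nearest sample is given as a share of the group's range, and all lie past Dixon's critical value. Chance gives about 1 in 20 groups. They were Sik1 A_55_P2061278 at 90/5 5 hr (0.87 of the range, replicate 3 high), Crebbp A_55_P1965836 at 18/1 2 hr (0.896, replicate 1 low), Crtc2 A_55_P2112180 in unstimulated samples (0.958, replicate 1 high) and at 18/1 5 hr (0.835, 1 sample low), and Atf1 A_52_P228079 at 90/5 5 hr (0.858, replicate 3 low). Both Sik1 and Atf1 sets involve replicate 3 of 90/5 5 hr.

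The interaction of pattern and time in the limma fit was called for Crem A_51_P423976 (1.85), Crtc3 A_55_P2066484 (1.91), Crebbp A_55_P1965836 (-2.15) and Crtc1 A_55_P2112170 (-1.40). Each term rests on both groups of slide 2, so pattern and slide cannot be told apart in it. Of all filtered probes, 45% were called for it.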

How the results depend on the processing

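Counts of called member probes moved with the model used. At 18/1 5 hr against unstimulated the count of 3 became 6 with no array block or with weights for array quality and 1 with the methods' t-test after adjustment. With no array block it became 3 (90/5 2 hr against 18/1 2 hr), 1 (90/5 2 hr against 18/1 5 hr), 2 (90/5 2 hr against unstimulated), 5 (90/5 5 hr against 18/1 5 hr) and 2 (90/5 5 hr against 90/5 2 hr), and with weights 3, unchanged at 0, 2, 5 and 1, with 2 at 18/1 2 hr and 3 at 90/5 5 hr against unstimulated. The methods' t-test gave 2 (90/5 2 hr against 18/1 2 hr), 1 (90/5 2 hr against unstimulated), 1 (90/5 5 hr against 90/5 2 hr) and 1 (90/5 5 hr against unstimulated) unadjusted, and 1 at 90/5 5 hr against 18/1 5 hr adjusted. For 90/5 2 hr against 18/1 5 hr, median centring gave 2, a filter within a condition 1 and no filter 3, and 90/5 2 hr against unstimulated fitted on those conditions alone gave 1 (Sik1). The shares of all probes called under these settings are not given, so these counts cannot be read against the array. The cause was not tested.

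Leaving out each sample or array in turn gave 1 to 6 calls at 18/1 5 hr against unstimulated (1 without array 1 or array 2, 6 without array 6), 1 to 6 for 18/1 5 hr against 18/1 2 hr (2 without array 3 or array 5, 1 without array 4), 2 to 6 for 90/5 5 hr against 18/1 5 hr (6 without array 6) and 3 to 6 for the interaction. It gave 0 to 3 at 90/5 2 hr against unstimulated (3 without array 7, 1 without array 5, 6 or 10 or replicate 3 of 90/5 5 hr), 0 to 2 against 18/1 2 hr (2 without array 7, 1 without that replicate), 0 to 4 against 18/1 5 hr (4 without array 6, 2 without array 8, 1 without the Cy3 sample of either), 0 to 2 for 90/5 5 hr against 90/5 2 hr (2 without array 7, 1 without array 6), and 0 throughout at 18/1 2 hr and 90/5 5 hr against unstimulated.

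Of single-probe results, Crebbp A_55_P1965836 at 18/1 5 hr kept its call in 41 of 44 alternatives (0.77 to 1.73), losing it with median centring and with both forms of the methods' t-test, Crtc3 A_55_P2066484 in 40 of 43 (lost with no filter, without array 1 and without array 2) and Crtc2 A_55_P2024515 in 21 of 44. Sik1 at 90/5 2 hr gained a call in 9 of 44, 1 of them unadjusted (0.87 to 1.26, adjusted p 0.00513 to 0.455). No called difference changed sign. With the replicate number as a block in a fit of unstimulated, 18/1 2 hr and 90/5 5 hr (replicate block), 0 members were called in both comparisons, and 0 in a blocked fit of unstimulated and 18/1 2 hr alone, chosen after the data were seen (Crem A_51_P423976 0.36, adjusted p = 0.0766). The block changed no call. Same-numbered samples of 90/5 5 hr did not always deviate together with those of the other groups. Their correlation was over 0.1 in 2 of 4 pairs with unstimulated and 3 of 4 with 18/1 2 hr. With the mean colour effect removed, the counts were 1 of 4 and 2 of 4. Pairing was thus not established for 90/5 5 hr, although the first blocked fit used its numbers. Probes not well above background limit Atf1 A_55_P2071472, Crtc2 A_55_P2112180 and the dim probes of Crem, Creb1 and Crebbp. The same limit holds for Crtc3 A_55_P2066484, well above background in 16 of 20 samples but not on array 5 or array 8. Its differences are given without a bound.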
